A study of Oryza sativa with 8 samples.

Results

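Developing panicles of wild-type rice were compared with young leaves of the same cultivar on 4 of the 8 arrays of a study of Ghd7, a repressor of flowering. The 4 arrays were chosen by their titles: 2 hold panicles 0.1 cm long and 2 hold leaves of 35-day-old plants in the vegetative stage, all from wild-type Hejiang19. The other 4 arrays, used here only to see whether the tissue difference recurs, hold panicles and leaves labelled as overexpressing Ghd7 in Hejiang19, again 2 of each. The promoter of that transgene and the number of transgenic lines are not given in the sources used here. All plants grew in the field in Wuhan, and every sample was taken 3 hours after dawn. The age of the plants that gave the panicles is not stated, so organ, developmental stage and plant age cannot be told apart. One label, the same on all 8 arrays, speaks of flag leaves at heading, which the titles, tissues and protocols do not. The replicates are labelled biological, but whether they came from separate plants or pools is not given, and p-values below measure only the spread between these arrays.

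A panicle of this size is a cluster of meristems. The inflorescence meristem gives branch meristems, these give spikelet meristems, and MADS-box transcription factors then set the identity of the floral organs, in the A, B, C, D and E classes of the flowering model. A young leaf blade is instead an organ whose cells have largely stopped dividing and are filled with chloroplasts. It is also where rice makes Hd3a, the florigen protein that travels to the shoot tip and starts panicle formation.

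The values are log2 signals made by RMA, the standard summary of Affymetrix arrays. Panicle and leaf arrays were deposited on different scales, with medians of 6.13 and 6.13 on the wild-type panicle arrays against 4.49 and 4.51 on the wild-type leaf arrays. The 4 arrays were therefore quantile normalized together, and each probe set also has a percentile, its rank within its own array. A difference is panicle minus leaf on that common log2 scale, so that 1 unit is a factor of 2, and it is tested with limma with adjustment over all 57194 rice probe sets. Tissue and deposited scale coincide, so only differences relative to the rest of the array were measured. The arrays have no detection calls, and a difference whose lower tissue has a mean below the array median is a lower bound, written "at least" where it exceeds 2 log2 units. Such a bound holds on the common scale only, and some sizes were smaller where only the array medians were set equal. Bounds of this kind have no measured order. These are bulk tissues, in which fewer cells of a type and less RNA per cell cannot be told apart.

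The replicate arrays were close, with a Spearman correlation over probe sets of 0.994 within panicle and 0.988 within leaf, against 0.676 to 0.682 between the tissues. The median SD was 0.06 in panicle and 0.12 in leaf. The gap between the 3′ and the 5′ signal of a control transcript, a sign of RNA length, went no single way. For 1 of the 2 rice actin controls it was 0.70 and 0.74 in panicle and 2.06 and 1.70 in leaf, and for the other 2.24 and 2.37 in panicle and 2.48 and 2.42 in leaf. It was 2.60 and 2.68 in panicle and 2.48 and 2.26 in leaf for a GAPDH control, and 0.67 and 0.72 in panicle and -0.18 and -0.32 in leaf for a cyclophilin control. The part of these gaps in the tissue differences was not tested. Of the 64 reporter control probe sets, 2 were over 2 log2 units higher on the arrays labelled overexpressor leaf than on the wild-type leaf arrays. None of the 64 was so on the arrays labelled overexpressor panicle, so those arrays do not show the difference that the leaf arrays of the same label show. The wild-type comparison uses none of the arrays labelled overexpressor.

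The genes listed for meristem, dividing cells and green mesophyll followed the labels of both tissues. All 10 measured genes of 11 listed for inflorescence and floral meristem were higher in panicle. The log2 of their summed signal was 14.49 and 14.47 there, against 11.62 and 11.04 in leaf. Of these genes OsMADS1 alone read 11.45 and 10.80 in leaf, at percentile 96.1. All 6 genes listed for dividing cells were higher in panicle too, with a summed level of 14.8 and 14.7 there and of 8.95 and 8.94 in leaf. The 4 measured of 9 green mesophyll genes were all lower in panicle, where their sum was 9.66 and 9.75, against 16.2 and 16.2 in leaf. They lay at percentiles 62.6 to 81.5 in panicle. Genes of late anthers and pollen lay between percentiles 17.8 and 42.6 in panicle, and 1 of the 4 measured, CYP703A3, was higher there than in leaf. Of the 2 measured root genes 1 was higher in panicle and 1 lower, and of the 4 measured seed genes 3 were lower. Some of these genes were bright in leaf. The root genes OsNIP2;1 and OsWOX9 stood there at percentiles 93.5 and 42.6. The seed genes GLB1, GLUA-2, RP6 and GLUA-1 stood in leaf at 96.2, 91.5, 52.2 and 3.1.

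The tissues differed across most of the array. By limma with Benjamini-Hochberg adjustment, 20365 of 57194 probe sets (35.6%) were higher in panicle and 23220 (40.6%) lower, at an adjusted p under 0.05. Past a 2-fold difference, tested with limma's treat, 10921 (19.1%) were higher and 10242 (17.9%) lower. Taking 1 probe set for each of the 17905 genes that could be assigned, 8883 genes (49.6%) were higher in panicle and 6246 (34.9%) lower, and past 2-fold 5489 (30.7%) were higher and 3806 (21.3%) lower. Among the 2453 genes with a name, from which the gene lists below draw, 46.8% were higher and 38.2% lower. The median difference was 0.36 over all 17905 genes. It was 1.06 where only the array medians were set equal, so counts of higher members below are read against the genes as a whole. Since 76.2% of all probe sets passed one way or the other, passing the test is the common case here, and the size of a difference says more than its call.

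The array carries 2 classes of probe set. Of 31694 with an "Os" name 46.3% were higher in panicle and 34.6% lower, and of 25500 with an "OsAffx" name, a dimmer class, 22.3% were higher and 48.1% lower.

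The bright end of the array was shared in part. Of the 5717 probe sets in the top 10% of the panicle arrays and the 5703 in the top 10% of the leaf arrays, 2556 were in both. A further 588 probe sets stood in the top 10% in panicle and below the median in leaf, and 487 did the reverse. The plot of percentiles shows that genes of DNA replication lie mostly near the top, bright in panicle, and are spread over the whole range in leaf. Most genes of photosynthesis and photorespiration gather along the right edge, at the very top of the leaf arrays and around the middle to upper part of the panicle arrays. Among the exceptions, RBCS1 lies below the median in both tissues, and CAT-B stands at percentile 92.5 in leaf and 95.3 in panicle.

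**Figure D1:**
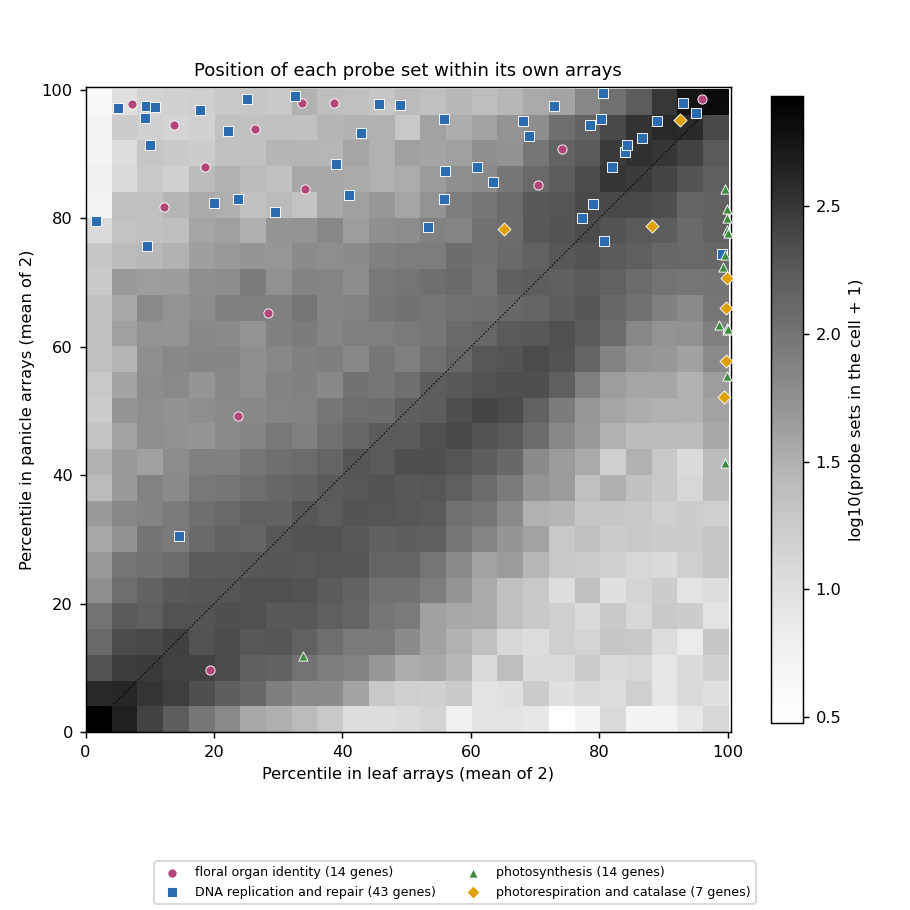
Percentile of each of 57194 probe sets within its own arrays, with the mean of the 2 wild-type panicle arrays on the y axis and the mean of the 2 wild-type leaf arrays on the x axis; grey shade is log10 of the probe sets in a cell plus 1, and coloured marks are genes of 4 lists. Of the 14 floral organ identity genes 13 lie above the dotted line of equal rank, and all 14 photosynthesis genes lie below it.

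The floral organ identity genes were nearly all higher in panicle. Of 14 measured genes 13 were higher in panicle and 1, OsMADS21, was lower, with 12 higher past 2-fold, and the median difference was 4.99. The E-class gene OsMADS5, a SEPALLATA-like factor (LOC4340218), read 11.86 and 11.77 in panicle and 2.91 and 3.18 in leaf. The panicle arrays stood in the top few percent and the leaf arrays near the bottom, a difference of at least 8.77 (SE 0.14, limma adjusted p = 7.87e-07). OsMADS7 and OsMADS8, the other SEPALLATA-like pair, differed by at least 6.56 (SE 0.19) and 7.32 (SE 0.12). OsMADS1, which specifies the lemma, the palea and the determinacy of the floret (LOC4332059), behaved otherwise. It read 12.20 and 12.31 in panicle and 11.45 and 10.80 in leaf, so it was bright in both tissues. The groups did not overlap, but the difference was only 1.13 (SE 0.22, adjusted p = 0.00488), a factor of 2.19.

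The genes of the other classes were also higher in panicle, apart from OsMADS21. Among the B-class genes, which specify lodicules and stamens, OsMADS2 read 11.82 and 11.82 in panicle and 4.25 and 4.43 in leaf. Its difference of at least 7.48 (SE 0.12) stood well above those of OsMADS4 (1.87, SE 0.15) and OsMADS16 (2.24, SE 0.15), which had leaf levels between 7.05 and 7.85. The AGL6-like genes OsMADS6 and OsMADS17, which act in floral organ and meristem identity, differed by at least 7.23 (SE 0.11) and 5.89 (SE 0.22). Of the 2 C-class genes for stamens and carpels, OsMADS58 read 8.63 and 8.66 in panicle and 3.46 and 3.14 in leaf, and OsMADS3 read 6.76 and 6.55 in panicle and 4.30 and 3.84 in leaf. DL, the YABBY factor that specifies the carpel and the leaf midrib, differed by at least 4.64 (SE 0.11). The D-class ovule genes were dim in both tissues: OsMADS13 read 5.45 and 5.09 in panicle and 3.87 and 3.81 in leaf, and OsMADS21 read 3.14 and 3.20 in panicle and 3.63 and 3.64 in leaf. OsMADS21 was lower in panicle (fitted difference -0.46, adjusted p = 0.0093), at percentile 9.7 in panicle and 19.4 in leaf. Without either panicle array it was -0.43 and -0.49 and did not pass. Such a fit has 1 panicle array, assumed to vary like the leaf arrays, and 1 residual degree of freedom.

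**Figure D2:**
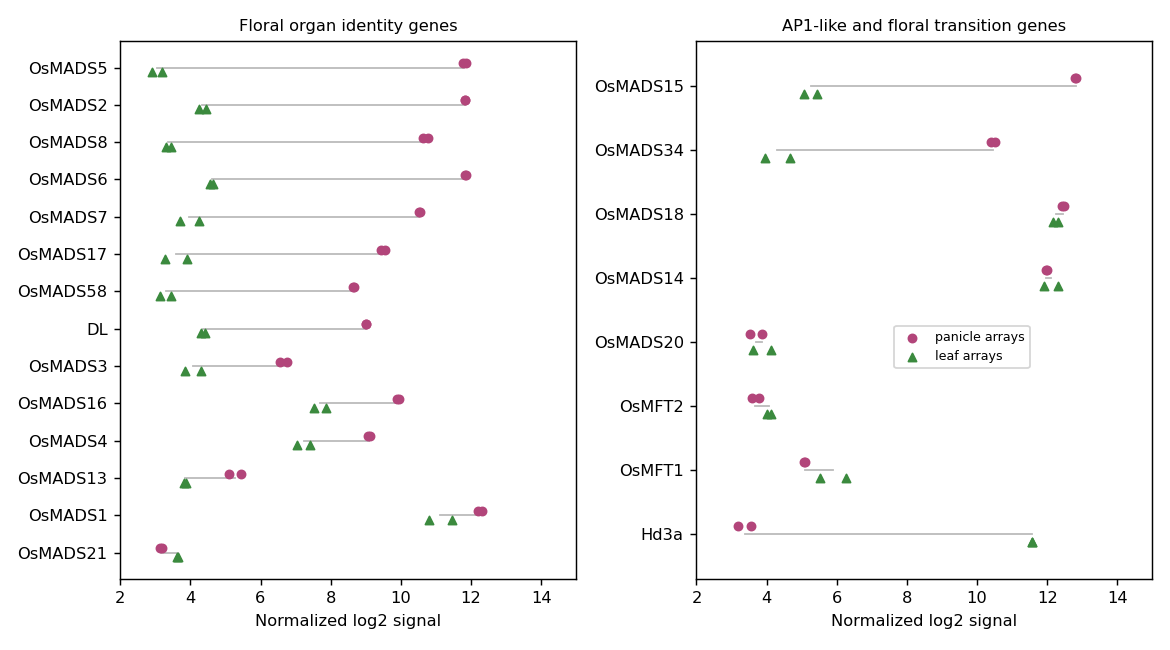
Normalized log2 signal (x axis) of the floral organ identity genes, left, and of the AP1-like and floral transition genes, right, in the 2 panicle arrays (circles) and the 2 leaf arrays (triangles); grey lines join the means. OsMADS5, OsMADS2 and OsMADS15 stand far apart between the tissues, OsMADS14 and OsMADS18 are near 12 in both, and Hd3a is at 11.57 in leaf and under 4 in panicle.

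The AP1-like genes, which mark the change from a vegetative to an inflorescence meristem, split in 2 ways. OsMADS15 (LOC4342214) read 12.82 and 12.80 in panicle and 5.08 and 5.44 in leaf, at least 7.55 higher in panicle (SE 0.15, adjusted p = 9.86e-07), and its 3 other probe sets were higher as well. OsMADS34, a SEPALLATA-like gene of the inflorescence and spikelet meristem, was at least 6.15 higher (SE 0.25). OsMADS14 (LOC4334140), the closest relative of OsMADS15, read 11.96 and 11.99 in panicle and 11.90 and 12.30 in leaf. The arrays of the tissues overlap, and the difference of -0.13 did not pass (SE 0.16, adjusted p = 0.493). Of its 3 other probe sets, 2 were lower in panicle, by 0.57 and 1.16 log2 units, and 1 was 1.60 higher. OsMADS18 read 12.43 and 12.48 in panicle and 12.16 and 12.32 in leaf, a difference of 0.22 (SE 0.12, adjusted p = 0.134) that did not pass either. OsMADS20, the remaining gene of this type, was dim in both tissues, at 3.52 and 3.88 in panicle and 3.61 and 4.14 in leaf.

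Hd3a (LOC4340185) showed the reverse of OsMADS15. It read 3.56 and 3.20 in panicle and 11.57 and 11.57 in leaf, a panicle level at percentile 13.98 and a leaf level at percentile 97.35. The difference of -8.19 (SE 0.15, adjusted p = 9.01e-07) makes Hd3a at least 292-fold lower in panicle. Of its relatives in the same protein family, OsMFT1 read 5.08 and 5.09 in panicle and 6.26 and 5.51 in leaf, and OsMFT2 read 3.78 and 3.58 in panicle and 4.13 and 3.999 in leaf. Both were lower in panicle, with fitted differences of -0.80 and -0.38 (adjusted p = 0.0285 and 0.036), and both were below the array median there. Of the 8 genes of this list 2 were higher, 3 lower and 3 did not pass, with a median difference of -0.15. Leaving out either panicle array left 1 lower gene, Hd3a.

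The wild-type leaf arrays thus had Hd3a, OsMADS14, OsMADS18 and OsMADS1 all above percentile 90. Over all 31 named MADS-box genes, 16 were higher in panicle (51.6%, against 49.6% over all genes) and 11 lower (35.5%, against 34.9%). Both shares were thus near those of all genes, and fewer members were lower without the second panicle array. The median difference was 0.54 against 0.36 over all genes, and 0.33 against 1.06 with array medians set equal. OsMADS47 and OsMADS56, which are known as repressors of brassinosteroid responses and of flowering under long days, were both lower in panicle. OsMADS47 read 3.25 and 3.49 in panicle and 7.38 and 7.18 in leaf, at least 3.91 lower (difference -3.91, SE 0.14). OsMADS56 read 8.98 and 8.96 in panicle and 11.27 and 11.23 in leaf, a difference of -2.28 (SE 0.11).

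Genes of the panicle meristem and its branching went both ways. Of 52 measured, 31 were higher in panicle (59.6%, against 49.6% over all genes), 12 lower (23.1%, against 34.9%) and 9 did not pass, with a median difference of 1.42. OSH1 (LOC4333973), the KNOX homeobox gene that keeps meristem cells undifferentiated, read 12.53 and 12.40 in panicle and 3.48 and 3.54 in leaf. It was at least 497-fold higher (difference 8.96, SE 0.11, adjusted p = 7.87e-07), and its second probe set differed by 8.91. Its relatives OSH71 and OSH6 were higher by at least 7.35 and 5.09. HOS59 and OSH45, KNOX genes too, were lower, by 3.47 and 1.81 log2 units, and HOS58 stood near 12 in both tissues with no difference passed. Of the 9 KNOX genes 5 were higher (55.6%) and 2 lower (22.2%).

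Several regulators of panicle architecture stood near the top of the panicle arrays and below the middle of the leaf arrays. OsSPL14, which promotes panicle branching and is a target of miR156, read 11.11 and 11.02 in panicle and 3.95 and 3.73 in leaf, at least 7.22 higher (SE 0.13). RFL, the rice relative of LEAFY, read 11.53 and 11.58 in panicle and 4.26 and 4.36 in leaf, at least 7.25 higher (SE 0.11). LAX1, the bHLH factor of axillary meristems, read 11.40 and 11.36 in panicle and 4.94 and 5.14 in leaf. FZP, which sets the identity of the spikelet meristem, was dimmer in panicle than these 3 but again clear of its leaf level, at least 4.37 higher (SE 0.12). G1L1 and G1L2, of the ALOG family of meristem genes, were higher by at least 7.05 and 6.95, while the dim G1L9 did not pass (difference -0.03).

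The SPL factors did not all follow OsSPL14. Of 11 measured, 6 were higher in panicle (54.5%, against 49.6% over all genes), 3 lower (27.3%, against 34.9%) and 2 did not pass. SPL16, a regulator of grain width, was at least 3.18 higher, and SPL15 read 12.53 and 12.51 in panicle and 10.84 and 10.76 in leaf, 1.71 higher. SPL9, SPL4 and SPL6 were lower by 1.37, 1.32 and 0.81 log2 units, but SPL4 has 2 further probe sets that were higher and SPL6 was 0.41 higher, with no pass, where array medians were set equal. FON1, the receptor kinase that limits floral meristem size, read 8.17 and 8.12 in panicle and 9.56 and 9.57 in leaf, lower by 1.42 (SE 0.11). PLA3, which slows the rate of leaf initiation, was 0.51 higher (adjusted p = 0.00793), and did not pass without either panicle array (0.53 and 0.52).

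LOG, which makes active cytokinin in the shoot meristem, was lower in panicle. It read 7.53 and 7.57 in panicle and 12.24 and 12.12 in leaf, a fall of 4.63 log2 units (SE 0.11, adjusted p = 1.46e-06) with a second probe set lower by 0.92. Within the LOG family, 3 of 8 genes were higher in panicle and 4 lower. LOGL6 was at least 4.18 higher and LOGL5 read 4.97 and 4.70 in panicle and 10.10 and 10.01 in leaf, at least 5.22 lower. The family median of -0.82 turned to 0.29 with array medians set equal, and LOGL7, lower by its chosen probe set, was higher by the other. The WOX family of stem cell and organ founder genes had 5 of 7 higher (71.4%, against 49.6% over all genes). Among them were OsWOX11 and OsWOX6 (at least 3.10 and 2.90), while OsWOX4 was lower by 1.14. Of the 8 epidermal Roc genes 5 were higher (62.5%), with Roc3 at least 6.23 higher and Roc7 at least 2.23 lower.

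**Figure D3:**
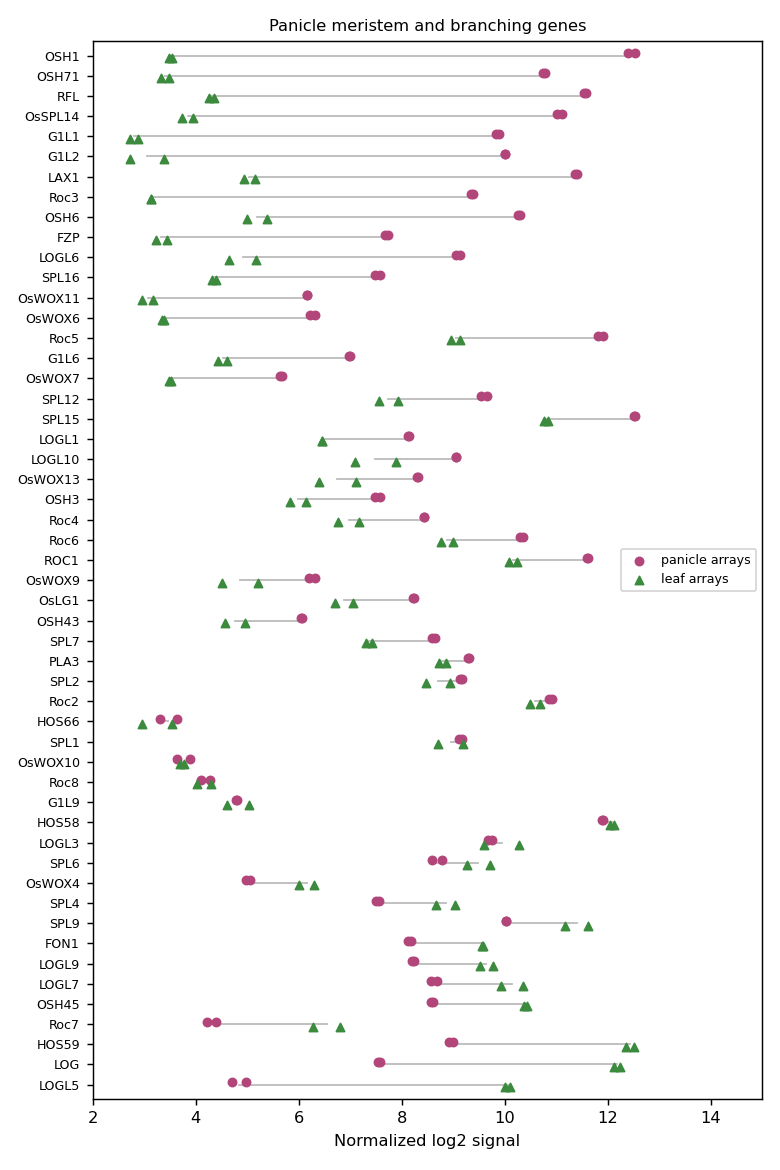
Normalized log2 signal (x axis) of the 52 panicle meristem and branching genes in the 2 panicle arrays (circles) and the 2 leaf arrays (triangles), ordered by their difference; grey lines join the means. The 31 genes higher in panicle run from OSH1 down to PLA3, and LOG and LOGL5 at the bottom are higher in leaf.

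Genes that set the polarity and growth of lateral organs were mostly higher in panicle. Of 25 measured, 22 were higher in panicle and 1, OsYABBY7, was lower, with a median difference of 4.15. OsYABBY7 (-0.45) did not pass without either panicle array (-0.39 and -0.48). OsYABBY5, which restrains and shapes the spikelet meristem (LOC4336518), read 12.75 and 12.87 in panicle and 3.39 and 3.62 in leaf. It was at least 9.31 higher (SE 0.13). OsYABBY4 and OsYABBY1 were higher by at least 7.32 and by 5.09, whereas OsYABBY2 read 10.09 and 9.98 in panicle and 9.77 and 10.34 in leaf, with no difference passed (adjusted p = 0.939). All 10 growth-regulating factors, transcription factors that promote cell number in young organs and are targets of miR396, were higher in panicle. Their median difference was 6.30, and 9 passed 2-fold. OsGRF6 read 12.83 and 12.88 in panicle and 4.50 and 4.93 in leaf, and OsGRF4, a regulator of grain size, read 12.15 and 12.13 in panicle and 6.50 and 6.80 in leaf. OsHox33, a class III HD-Zip gene, was higher by 4.002. The HD-Zip and homeobox list as a whole had 12 of 25 higher (48%) and 11 lower (44%). Over all genes these shares were 49.6% and 34.9%. OsHox14 was at least 7.51 higher and OsHox22 was 5.22 lower.

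The machinery of DNA replication and division was higher in panicle almost throughout. Of 43 replication and repair genes 39 were higher and 2 lower, with a median difference of 4.10. Of 8 MCM genes, which encode the replicative helicase, 7 were higher and the median difference was 8.08. OsMCM5 read 11.54 and 11.53 in panicle and 2.97 and 2.89 in leaf, at least 8.60 higher (SE 0.11), and OsMCM3, OsMCM2 and OsMCM4 were higher by at least 8.49, 8.39 and 8.36. All 5 origin recognition genes and all 5 genes of the clamp loader RFC were higher, with medians of 5.06 and 2.48. OsPCNA, the sliding clamp, was 4.58 higher, from a leaf level that was already at percentile 80.6. The 2 exceptions were OsCPDII, a light-driven repair enzyme of ultraviolet damage (-0.54, with no pass without either panicle array, and 0.73 with array medians set equal), and OsSPO11-3, of the SPO11 and topoisomerase VI family. OsSPO11-3 read 7.72 and 7.72 in panicle and 12.74 and 12.57 in leaf, while OsSPO11-4 of the same family read 12.32 and 12.21 in panicle and 3.77 and 4.05 in leaf. This pair differed by -4.93 and by at least 8.35.

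Among cell cycle genes 34 of 45 were higher in panicle and 4 lower. All 8 mitotic cyclins of the A and B types and B-type kinases were higher, with a median of 6.29. CYCB2-2 read 11.74 and 11.62 in panicle and 2.95 and 2.74 in leaf, at least 8.84 higher (SE 0.13). CYCA2-1 and CYCB1-1 were higher by at least 7.87 and 7.09. Of 9 D-type cyclins, which act at entry into the cycle, 8 were higher, with a median of 4.99. The kinase inhibitor KRP1 went the other way, at 4.41 and 4.45 in panicle and 10.42 and 10.17 in leaf, at least 5.86 lower (SE 0.13). CenH3, the histone of the centromere, was at least 7.39 higher.

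Of 33 kinesins, motors that include those of the spindle and the division plane, 30 were higher and 3 lower, with a median of 4.26. KIN14C read 10.38 and 10.33 in panicle and 3.41 and 3.34 in leaf, at least 6.98 higher. KIN14K was 1.83 lower by its chosen probe set, while one of its 2 other probe sets was higher. Of 10 tubulins 8 were higher and 2 lower, and of 10 formins, which nucleate actin, 8 were higher and 2 lower. AC7, an actin gene, was 2.41 lower.

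Ribosomal protein and translation genes were bright in both tissues and brighter still in panicle. Of 24 ribosomal protein genes 20 were higher and 4 lower, with a median difference of 2.02, and all 8 translation factors were higher, with a median of 1.40. On percentile ranks, where the top of the array leaves little room, 10 ribosomal and 4 translation genes were higher. RPL7A-1 read 13.76 and 13.74 in panicle and 10.98 and 11.06 in leaf. The 4 genes that were lower were RPL27, rpl5, RPL18 and RPS10-1. RPL27 read 8.53 and 8.50 in panicle and 12.18 and 11.85 in leaf, with 2 further probe sets lower as well, and RPL5, a separate gene from rpl5 in the annotation, was 2.44 higher while rpl5 was 2.93 lower.

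Chromatin and small RNA genes were higher in panicle too. Of 23 histone and chromatin genes 21 were higher and 2 lower, with a median of 1.65. OsMET1-2, the maintenance DNA methyltransferase, read 11.24 and 11.17 in panicle and 3.39 and 3.39 in leaf, at least 7.82 higher, and OsCMT3a, which methylates CHG sites, was at least 6.61 higher. DNG701, an enzyme that removes methylated cytosine, was also higher, by at least 6.71. EZ1, a Polycomb histone methyltransferase, was 0.90 lower, with a difference of 0.36 that did not pass once array medians were set equal. Of 26 small RNA genes 21 were higher and 3 lower, with a median of 2.36. OsRDR4 read 12.08 and 12.12 in panicle and 5.69 and 6.19 in leaf, 6.16 higher (SE 0.18). OsAGO1d and OsAGO1b, which carry microRNAs, were higher by 5.65 and 4.42. OsAGO18 was 1.43 lower, with a difference of -0.26 that did not pass once array medians were set equal.

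Some genes of the germ line were already well above their leaf level in panicles of this size. Of 19 meiosis and sporogenesis genes 11 were higher (57.9%), each past 2-fold, 1 was lower and 7 did not pass. Their median difference was 1.84. Over all genes 49.6% were higher, and 30.7% were higher past 2-fold. Among the 11, CYP703A3, OsDMC1, TIP2 and PTC1 were not bright in panicle, at percentiles 42.6, 50.3, 55.6 and 55.8. MEL1, an Argonaute of germ cells before meiosis, read 10.23 and 10.14 in panicle and 4.78 and 4.24 in leaf, at least 5.68 higher (SE 0.20). MSP1, a receptor kinase that limits the number of cells entering sporogenesis, was 3.47 higher, and the chromosome pairing genes PAIR2 and CRC1 were higher by 3.59 and at least 3.68. DTM1, which acts in the tapetum, was 0.90 lower, with 0.30 and no pass where array medians were set equal.

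Photosynthesis genes were lower in panicle without exception among those measured. All 14 passed, 13 of them past 2-fold, with a median difference of -5.90, and the median percentile was 67.9 in panicle and 99.8 in leaf. The Rubisco activase gene rca (LOC4351224) read 6.40 and 6.37 in panicle and 14.41 and 14.41 in leaf, 259-fold lower in panicle (difference -8.02, SE 0.11, adjusted p = 7.87e-07), with 3 further probe sets lower. The light-harvesting genes RCABP69 and LHCP were lower by 7.97 and 7.67 log2 units, and PSAH of photosystem I by 7.44. FBPase, of the Calvin cycle and sucrose synthesis, was at least 8.32 lower. OsrbcS, the small subunit of Rubisco, read 8.06 and 8.20 in panicle and 14.46 and 14.46 in leaf, so the panicle arrays still held it at percentile 77.8. RBCS1, a small-subunit gene known to be little used in leaf blades, was dim in both tissues, at 3.01 and 3.53 in panicle and 4.24 and 4.45 in leaf.

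Of 11 chlorophyll genes 10 were lower in panicle and 1, CHLG, did not pass, with a median of -2.15. The chlorophyll synthase CHLG read 10.48 and 10.48 in panicle and 10.39 and 10.50 in leaf. PORB and the breakdown genes SGR and OsNYC1 were lower by 4.86, 4.21 and 2.65 log2 units. CHLH, a subunit of magnesium chelatase, read 5.97 and 5.94 in panicle and 12.64 and 12.97 in leaf, but its second probe set was 5.28 higher in panicle, so the gene has no settled direction here. In photorespiration 5 of 7 genes were lower. GDCSH, of the glycine cleavage complex, read 5.98 and 5.85 in panicle and 13.65 and 13.54 in leaf, and the catalase CAT-A and the glycolate oxidases OsGLO5 and OsGLO1 were lower by 7.56, 6.91 and 6.53 log2 units. Their relatives CAT-B and OsGLO3 were higher in panicle, by 0.62 and 1.55. Of the 4 other probe sets of CAT-B 1 was higher and 3 did not pass, 2 of them with a negative difference (-0.28 and -0.30). OsGLK1, a transcription factor of chloroplast development, was 6.40 lower.

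Sugar genes went both ways. Of 53 starch and sucrose genes 18 were higher and 24 lower, and the median of -0.32 was 0.01 with array medians set equal. OsCIN2, a cell wall invertase that feeds growing sinks, read 10.06 and 10.02 in panicle and 2.96 and 2.94 in leaf, at least 7.09 higher, whereas its relative OsCIN1 was 5.06 lower. OsSUS1, a sucrose synthase, was 6.23 higher. Of 12 SWEET sugar transporters 3 were higher and 6 lower. OsSWEET2b read 4.81 and 4.69 in panicle and 12.10 and 12.02 in leaf, at least 7.31 lower. OsSWEET11 read 11.24 and 11.19 in panicle and 3.29 and 6.91 in leaf, so the leaf arrays disagreed widely, one below and one above the array median, and the difference of 6.11 has an SE of 1.09 and is no bound.

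**Figure D4:**
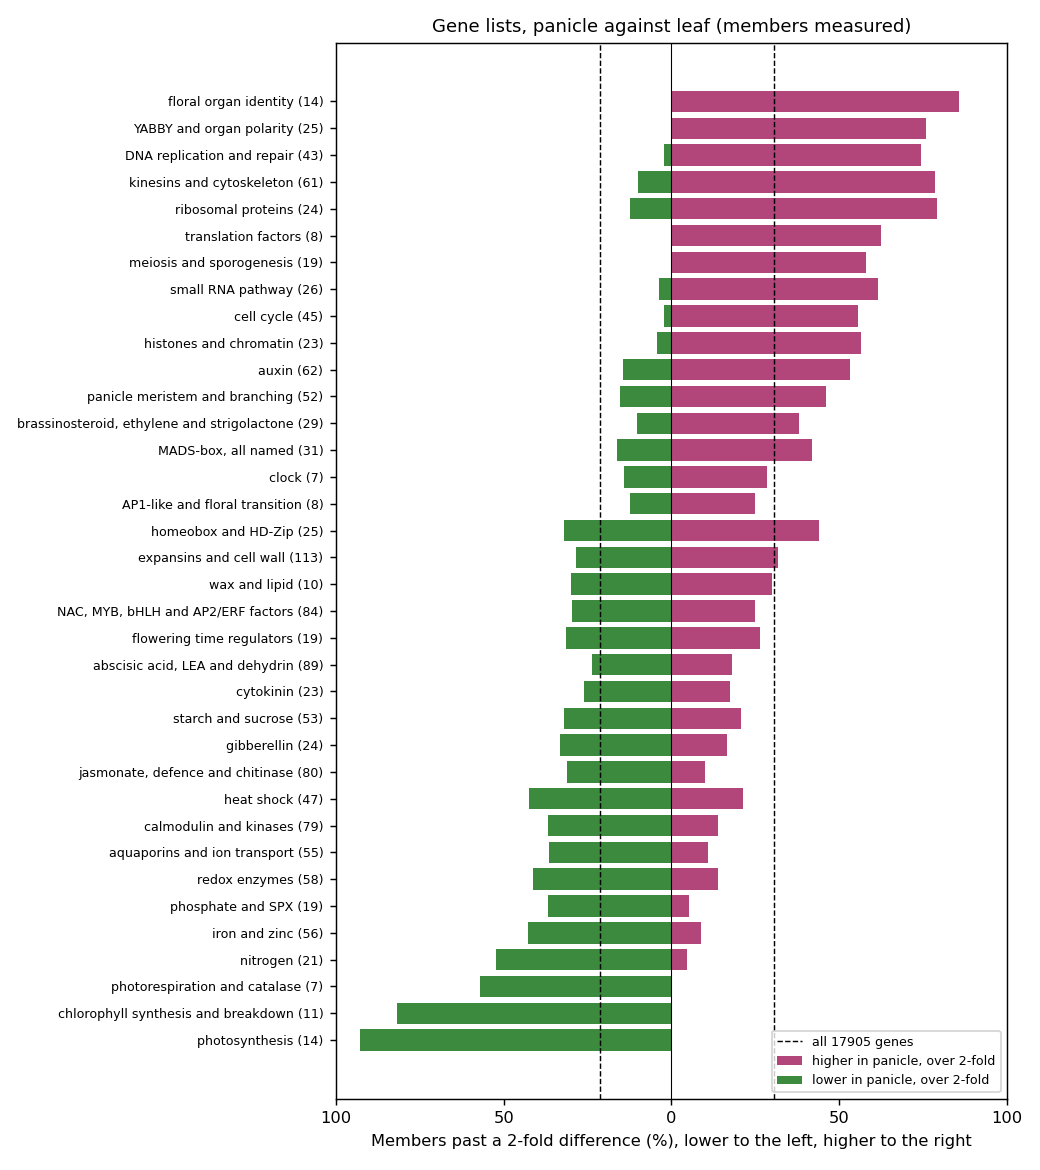
Share of the measured members of 36 gene lists past a 2-fold difference (x axis, percent), with members higher in panicle drawn to the right and members lower in panicle to the left; list sizes are in brackets, and dashed lines mark the shares over all 17905 genes, 30.7% higher and 21.3% lower. Floral organ identity stands at the top and photosynthesis at the bottom.

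The genes that time flowering showed no common direction. Of 19 regulators 9 were higher in panicle and 9 lower, and the median of -0.35 was 0.07 with array medians set equal. The phytochromes PHYA and phyC, red light receptors, were higher by 2.21 and 1.88, and PhyB by 0.45, which did not pass without either panicle array (0.53 and 0.41). PHOT2, a blue light receptor, read 7.06 and 7.04 in panicle and 12.25 and 12.47 in leaf, 5.31 log2 units lower, and SE5, which is needed to make the phytochrome pigment, was 3.91 lower. Ehd3, Hd16 and Ehd4, regulators of flowering under day length, were higher by 2.49, 1.68 and 1.21. Hd1, which reads day length upstream of Hd3a, was dim in both tissues, at 3.91 and 4.11 in panicle and 3.38 and 3.23 in leaf, and DTH8 did not pass. Ghd7 and Ehd1 were not analysed here.

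Clock genes differed by member although every sample was taken at the same hour. OsCCA1, a morning gene, read 8.16 and 8.13 in panicle and 13.32 and 13.54 in leaf, 39-fold lower in panicle (difference -5.28, SE 0.12, adjusted p = 1.37e-06). Its second probe set did not pass. GI and OsPCL1, which peak later in the day, went the other way. GI read 12.70 and 12.82 in panicle and 8.87 and 8.86 in leaf, 3.90 higher (SE 0.11), and OsPCL1 read 10.36 and 10.33 in panicle and 5.63 and 5.94 in leaf, 4.56 higher (SE 0.14). Of the PRR genes, OsPRR95 and OsPRR73 were lower by 1.24 and 0.65 log2 units, OsPRR37 was 1.26 higher and OsPRR1 did not pass. Of 7 clock genes 3 were higher and 3 lower, with a median of -0.06 that was 1.14 with array medians set equal.

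Auxin genes leaned toward the panicle, with 44 of 62 higher and 13 lower and a median of 1.52. Of 17 auxin response factors 15 were higher and 1 lower, with a median of 2.25, among them OsETTIN2 (12.40 and 12.42 in panicle, 7.78 and 7.84 in leaf). Of 26 Aux/IAA repressors 16 were higher (61.5%) and 6 lower (23.1%), with IAA7 at least 5.95 higher and IAA25 3.44 lower. OsPID, the kinase that directs auxin transporters, was at least 6.04 higher. OsPIN5a, an auxin carrier, read 4.08 and 3.92 in panicle and 11.94 and 11.99 in leaf, at least 7.97 lower. OsARF8 read 12.39 and 12.49 in panicle and 5.63 and 7.31 in leaf, so its leaf arrays disagreed, and its difference of 5.97 has an SE of 0.52. IAA30, 5.86 higher, has an SE of 0.49 for the same reason.

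The other hormone lists were mixed when read against all genes, of which 49.6% were higher and 34.9% lower. The shares were 34.8% and 39.1% for cytokinin and 41.7% and 41.7% for gibberellin. They were 55.2% and 24.1% for brassinosteroid, ethylene and strigolactone. Of 23 cytokinin genes 8 were higher and 9 lower, with the response regulators OsRR9, OsRR4 and OsRR2 lower by 5.16, 3.58 and 3.49 log2 units, and the phosphotransfer protein OsAHP1 3.06 higher. Of 24 gibberellin genes 10 were higher and 10 lower, or 6 higher without either panicle array, where the lone panicle array is assumed to vary like the leaf arrays. OsCPS4 and OsCPS2 in that list, lower by at least 5.01 and 4.78, are enzymes known for defence diterpenes and not for the hormone. Of 29 genes of brassinosteroid, ethylene and strigolactone 16 were higher and 7 lower. OsDWARF11 and OsBRI1, of brassinosteroid synthesis and perception, were higher by 5.98 and 3.22, and the strigolactone receptor D14 was 2.55 lower. IBH1 was 3.87 lower by its chosen probe set and higher by another.

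Cell wall genes went both ways. Of 9 cellulose synthases 8 were higher in panicle and none lower, with a median of 2.86. Of 20 cellulose synthase-like genes 14 were higher, among them OsCslC9 (at least 5.99), and 4 lower. Of 27 beta-glucosidases 6 were higher and 15 lower, with a median of -1.50 that was -0.70 with array medians set equal. Os5bglu19 read 3.61 and 3.97 in panicle and 11.94 and 12.14 in leaf, at least 8.25 lower, and Os3bglu8 read 10.33 and 10.30 in panicle and 3.82 and 3.90 in leaf, at least 6.45 higher. Of 29 expansins, which loosen walls, 12 were higher (41.4%, against 49.6% over all genes) and 10 lower (34.5%, against 34.9%). OsEXP5 and OsaEXPb1.7 were higher by at least 6.91 and 7.23. OsEXP7 was at least 7.59 higher by its chosen probe set and 0.93 lower by another. OsKCS20, of very-long-chain fatty acid synthesis, was at least 7.90 higher, and LTP, a lipid transfer protein, was at least 9.48 lower.

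The remaining genes were named for large fitted differences. OsGLU8, an endoglucanase gene, read 13.13 and 13.22 in panicle and 4.07 and 4.04 in leaf, at least 9.12 higher. OsBCL1, of the transcription factor list, was at least 8.78 higher. PDX12, of vitamin B6 synthesis, read 3.83 and 4.01 in panicle and 13.70 and 13.52 in leaf, at least 826-fold lower (difference -9.69, SE 0.13). OsPEX11-4, of peroxisome division, and OsCRSH2, which makes the plastid alarm nucleotide, were lower by at least 9.40 and 9.31. CFBP1, a fructose bisphosphatase, was at least 8.11 lower.

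The panicle and leaf arrays labelled overexpressor, which share no array with the wild-type pair and were normalized apart from it, gave 20136 probe sets higher in panicle (35.2%) and 23339 lower (40.8%). Of these, 18270 were higher in wild type as well, which is 90.7% of the overexpressor list and 89.7% of the wild-type list, and 20954 were lower in both, 89.8% and 90.2%. In 90 probe sets a rise in the overexpressor arrays stood against a fall in wild type, and 78 showed the reverse. With 1 probe set per gene, 50.7% of genes were higher in panicle and 34.7% lower on the overexpressor arrays. The tissue difference itself differed between the genotypes in 1152 probe sets toward a more positive value (2.01%) and in 878 toward a more negative one (1.54%), by the interaction term of limma on all 8 arrays. The 10 growth-regulating factors and the 8 mitotic cyclins and B-type kinases had overexpressor medians of 6.45 and 5.89. None of them passed the interaction, but so few probe sets did that this says little about them.

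The interactions of OsMADS14, Hd3a and OsMADS1 passed, all towards a more positive difference. Each rests on a level below the array median, in the overexpressor leaf for all 3 and in panicle of both genotypes for Hd3a, so their sizes have no measured order. OsMADS14 was at least 7.56 higher in panicle on the overexpressor arrays, at 12.30 and 12.35 in panicle and 4.68 and 4.85 in leaf, against -0.13 in wild type. For Hd3a the overexpressor difference was -1.02, with 3.61 and 3.47 in panicle and 4.93 and 4.19 in leaf, against -8.19 in wild type. For OsMADS1 it was at least 6.47, against 1.13 in wild type. In these 3 genes the genotypes stood further apart in leaf than in panicle. In OsMADS7, OsMADS8 and OsMADS58 they stood further apart in panicle: OsMADS7 read 7.22 and 7.18 in overexpressor panicles, against 10.55 and 10.51 in wild-type panicles, levels set across 2 separate normalizations. OsMADS15, by contrast, differed by at least 7.96 on the overexpressor arrays and at least 7.55 in wild type, with no interaction passed (adjusted p = 0.299).

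**Figure D5:**
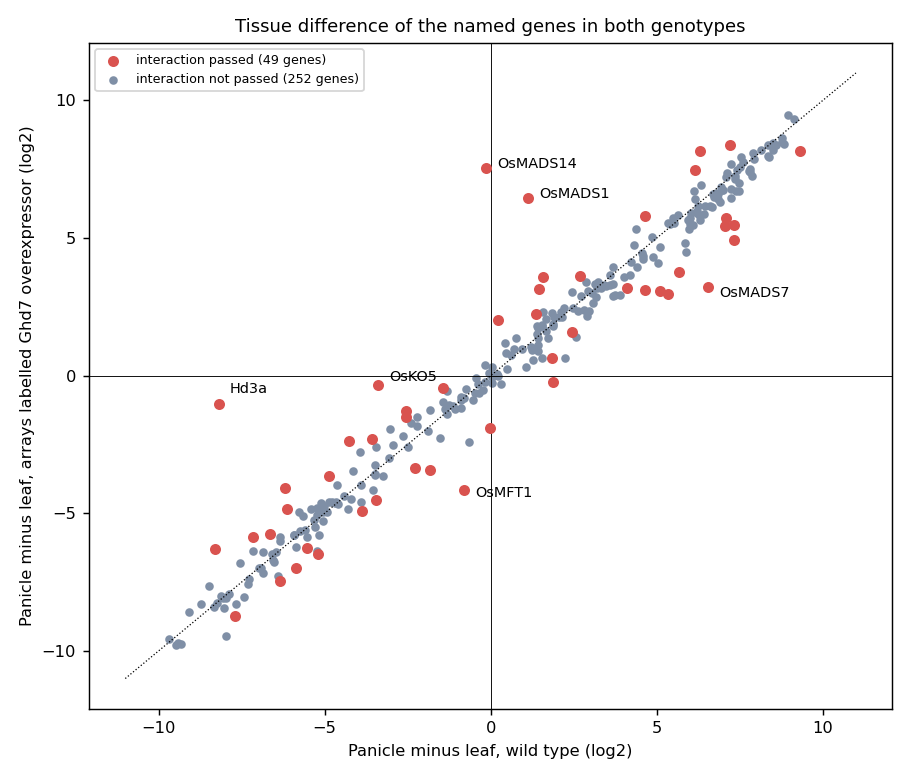
Panicle minus leaf difference (log2) of the 301 named genes on the 4 arrays labelled Ghd7 overexpressor (y axis) and on the 4 wild-type arrays (x axis); red points are the 49 genes whose interaction passed, and the dotted line marks equal differences. OsMADS14, Hd3a and OsMADS1 stand far above the line, and OsMFT1 and OsMADS7 far below it; levels below the array median enter as fitted.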

How the data were processed

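Total RNA was hybridised to Affymetrix rice arrays. The authors deposited log2 signals summarised with RMA, per the submitters' processing notes; its version and settings, and whether the tissues were summarised together, are not given in the sources used here. Of 57381 rows, 123 AFFX and 64 RPTR controls were set aside. The platform annotation pairs 22436 probe sets with 1 gene, 95 with several and 34663 with none; symbols came from RefSeq.

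The 4 wild-type arrays were quantile normalized together and fitted with lmFit, eBayes and treat of limma 3.58.1 in R 4.3.3, with no block and 2 residual degrees of freedom, and Benjamini-Hochberg adjustment. The 4 overexpressor arrays were normalized apart and fitted likewise, and the interaction used all 8. A gene is shown by its probe set of highest mean; others called in the opposite direction are named. The number of arrays limits precision.

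Named genes were all members of the floral, AP1-like and meristem lists, up to 5 of smallest p and up to 2 against the trend of the other lists, and the 12 largest rises and falls among named genes. The members and lists were chosen with earlier results of these data known. Sublists were written after the annotation was seen, 54 members that matched by name alone were removed, and 29 genes were added to the names after their values were seen. Alternatives were other normalizations, percentile ranks, a filter, a trended prior, a replicate block, treat, all probe sets of a list, and leaving out each array. The linear model was tested on simulated data in which few probe sets differed, as many up as down. Joint normalization of tissues that differ in most probe sets was not simulated. No sequences are printed.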

Additional observations from a re-analysis of the deposited data

Results flagged for a closer look

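In 49 of the 301 named genes the panicle minus leaf difference differed between the overexpressor and the wild-type arrays, by the interaction term of limma with adjustment over all probe sets, of which 2.01% had a more positive and 1.54% a more negative difference in the overexpressor arrays. Many of the names were chosen for a large wild-type difference, which the interaction contains, so the 49 are a description. The interaction was positive in 24 genes and negative in 25. Each value below is the overexpressor difference minus the wild-type difference in log2 units. Where a level lay below the array median, as for Hd3a in panicle, the size of the value is as fitted and has no measured order.

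Among flowering and MADS-box genes the interaction was 7.71 for OsMADS14, 7.15 for Hd3a, 5.36 for OsMADS1, 1.82 for OsMADS18 and 1.39 for OsMADS34. It was -3.40 for OsMFT1, -3.27 for OsMADS7, -2.35 for OsMADS58, -2.34 for OsMADS8, -2.08 for OsMADS4, -1.47 for DL and -1.05 for OsMADS56. So 5 of the 14 floral organ identity genes had a more negative panicle minus leaf difference on the overexpressor arrays and 1, OsMADS1, a more positive one. Genes of meristem and lateral organs gave -1.99 for OsYABBY1, -1.86 for OsYABBY2, -1.79 for OsYABBY4, -1.10 for OsYABBY5, -1.54 for G1L1, -0.83 for G1L6, -1.21 for SPL12, 1.21 for OsSPL14, 0.93 for OsLG1 and 1.72 for Roc4. Of the 6 genes listed as YABBY, these 4 had a more negative panicle minus leaf difference on the overexpressor arrays, and the others had no interaction passed. For OsYABBY2 no difference had passed in wild type.

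In hormone and defence genes the value was 3.05 for OsKO5, 1.24 for OsRR4, 1.08 for D14, -1.12 for IBH1, 1.89 for Osem, 1.84 for OsPP108, 2.16 for PBZ1, 1.22 for MPK15 and -0.78 for OsChia2a. Leaf metabolism gave 1.21 for PORB, 1.26 for GSA, -1.11 for OsrbcS, -1.04 for GDCSH, -1.30 for OsCIN2, 1.26 for OsMST3, -1.28 for OsGLN1;2 and -1.14 for NIA1. The rest were 1.24 for OsPIP1;3, -1.11 for OsPHO1;3, 0.92 for OsMT1a, 2.06 for wsl3, -0.90 for HMG3, 1.95 for OsAT5, 0.88 for RPL11, 0.98 for OsAGO18, -1.60 for KIN14K and -1.83 for MEL1.

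Among the reporter control probe sets, which no comparison uses, 2 had signal on the arrays labelled overexpressor leaf. On the deposited scale one read 12.18 and 14.26 on overexpressor leaf arrays and 5.78 and 4.35 on wild-type leaf arrays, a gap of 8.15. The other read 11.26 and 11.45 on overexpressor leaf arrays and 3.56 and 3.53 on wild-type leaf arrays, a gap of 7.81. In panicle the first read 4.50 and 4.51 on overexpressor arrays and 4.41 and 4.57 on wild-type arrays, and the second 3.87 and 3.91 on overexpressor arrays and 3.64 and 3.59 on wild-type arrays. Why the panicle arrays of the overexpressor label lack the signal was not tested.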

How the results depend on the processing

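The counts of probe sets higher in panicle (20365) and probe sets lower in panicle (23220) stayed within a factor of 1.5 under the other joint normalizations, percentile ranks, a filter on dim probe sets, a trended prior and leaving out an array. Without 1 array they ran from 17639 to 20971 higher and from 19601 to 23761 lower. Against a 2-fold difference they were 10921 and 10242, and with 1 probe set per gene 8883 and 6246. The deposited values with no change of scale gave 48021 higher and 4462 lower, since on that scale the median panicle minus leaf difference over probe sets was 1.58 log2 units. With the replicate number as a block 20393 were higher and 23293 lower. The replicate 1 minus replicate 2 differences of the tissues correlated at 0.045 over probe sets after joint normalization. That value cannot show whether samples of one replicate number shared any handling, and the labels do not say.

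Of 36 gene lists 17 had more members higher than lower, and 16 to 24 had under the other settings, which for list counts were chosen after seeing the data, apart from the use of all probe sets. Of 3297 recomputed values of named genes 25 changed sign, in 15 genes, of which 4 had passed. With array medians set equal those 4 became 0.36 (EZ1), 0.41 (SPL6), 0.30 (DTM1) and 0.73 (OsCPDII), and genes that had not passed became 1.14 (OsPRR1), 0.82 (LOGL3), 0.96 (OsYABBY2), -0.18 (Roc8) and -0.18 (OsWOX10). On percentile ranks OsYABBY2 differed by 0.0052 percentile. Leaving out each array in turn gave both signs in 11 genes, none of which had passed: -0.059 to 0.42 in SPL1, -0.14 to 0.015 in OsPRR1, -0.54 to 0.11 in LOGL3, -0.071 to 0.52 in HOS66, -0.29 to 0.25 in OsYABBY2, -0.30 to 0.062 in OsMADS14, -0.26 to 0.19 in G1L9, -0.022 to 0.081 in CHLG, -0.10 to 0.16 in Roc8, -0.095 to 0.17 in OsWOX10 and -0.44 to 0.090 in OsMADS20. The cause was not tested. OsMADS21, OsMFT1, OsMFT2, OsYABBY7, OsCPDII, PhyB and PLA3 no longer passed without either panicle array, where the lone array is assumed to vary like the leaf arrays and 1 residual degree of freedom is left. Their differences kept their sign, at -0.49 and -0.28 for OsMFT2 and at -0.74 and -0.75 for OsMFT1. Low levels are measured poorly, and 21772 probe sets were below the array median in both tissues.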

Other observations

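Genes of nutrient uptake and metal handling were mostly lower in panicle. Of 21 nitrogen genes 4 were higher and 15 lower, with a median difference of -1.99 against 0.36 over all genes. The ammonium transporter OsAMT1 read 6.47 and 6.44 in panicle and 12.86 and 12.997 in leaf, and the glutamine synthetases OsGLN1;2 and OsGLN2 were lower by 5.19 and 5.04 log2 units. Of 56 iron and zinc genes 13 were higher and 36 lower, with a median of -0.92 that was -0.52 with array medians set equal. The vacuolar iron transporters OsVIT1 and OsVIT1.2 were lower by 5.93 and 5.73, while the zinc transporter OsZIP3 was at least 4.85 higher. Of 19 phosphate genes 3 were higher and 13 lower, with a median of -0.57. The phosphate carrier OsPht1;4 read 4.21 and 4.33 in panicle and 10.87 and 10.84 in leaf. With array medians set equal 6 phosphate genes were higher. Of 18 water channels of the PIP and TIP families 4 were higher and 12 lower, with a median of -1.87: OsPIP2;2 was at least 8.49 lower and OsTIP4;2 was 4.90 higher.

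Most stress and signalling lists below had more members lower in panicle than higher. Of 80 jasmonate and defence genes 17 were higher in panicle and 44 lower, with a median of -0.86. With array medians set equal 26 were higher and the median was -0.25. The chitinase Cht11 read 3.63 and 3.39 in panicle and 12.42 and 12.79 in leaf, at least 9.09 lower, and the germin-like OsGER5 was at least 5.35 higher. Of 58 redox genes 17 were higher and 34 lower. The plastid thioredoxin OsTrxm5 was 7.88 lower, and the glutaredoxins diverged, with GRXC15 at least 7.26 lower and GRXC3 at least 6.79 higher. Of 79 calmodulin and kinase genes 25 were higher and 44 lower, and the median of -0.71 was 0.10 with array medians set equal. Among them were 24 CIPK kinases, partners of calcium sensors, with 5 higher and 18 lower and a median of -1.39 that was -0.35 with array medians set equal. OsCIPK05 was at least 8.73 lower. Of 89 abscisic acid genes 35 were higher and 42 lower, and the median of -0.26 was 0.56 with array medians set equal. Osem, an embryo LEA gene, nevertheless read 11.06 and 11.19 in panicle and 4.86 and 4.78 in leaf. Of 47 heat shock genes 18 were higher and 25 lower, with a median of -0.53.

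The OsAffx class of probe sets was dim, with a median percentile of 34.2 in panicle and 39.3 in leaf, against 68.2 in panicle and 63.5 in leaf for the Os class. Of 3444 genes with 2 or more probe sets, 532 had probe sets called in opposite directions.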
